A study of Mus musculus with 4 samples.

Results

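The TCA cycle genes and the genes that feed pyruvate, glutamate and carrier-borne acids into mitochondria were read in mouse CD4+ T cells cultured with and without dopamine. The group holds 29 of the 38282 genes in the deposited tables: the enzymes of the cycle apart from succinate dehydrogenase, the pyruvate dehydrogenase subunits, enzymes of pyruvate, glutamate and aspartate entry, and carriers of the inner membrane. Each member was found by its Ensembl ID through the symbol in GENCODE M21 (GRCm38, the mm10 build), and all 29 matched 1 row. All 29 had a mean of at least 1 FPKM and so were among the 11423 genes tested. FPKM, the deposited unit, is by definition the number of fragments scaled to transcript length and to the mapped fragments of the library. The sources used here do not say whether the libraries were also rescaled against each other.

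The samples were naive CD4+ T cells from the spleen of C57BL/6 mice, harvested on day 4 of culture under the Th0 condition, which by usual meaning is activation without cytokines that direct a T helper lineage. One group was Th0 alone and the other Th0 with dopamine (Th0+Dopa), with 2 libraries in each, numbered 2 and 3 in the labels. The labels do not give the dose or timing of dopamine, the age of the mice, or whether the libraries came from separate animals or cultures, so the p-values reflect only how these libraries varied, and that variation may be technical. The question was which transcripts differ when dopamine is present during T cell culture, in a study of dopaminergic nerves and Th2 inflammation of the lung.

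The TCA cycle oxidises acetyl-CoA to carbon dioxide in the mitochondrial matrix and passes the electrons to the respiratory chain. Pyruvate enters through the mitochondrial pyruvate carrier and becomes acetyl-CoA by pyruvate dehydrogenase, while glutamine supplies carbon as glutamate, which glutamate dehydrogenase and aminotransferases turn into oxoglutarate. Citrate that leaves through its carrier is the source of cytosolic acetyl-CoA for sterols and fatty acids, and T cells are known to raise both glycolysis and mitochondrial metabolism when they are activated.

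Upstream sequences are shown for Slc25a1, Slc25a10 and Mpc2, the 3 members called higher with dopamine in the test described below. Each line is the 250 bases before the RefSeq start of transcription on GRCm38.p6, written along the gene's strand: chr16:17928220-17928469 (minus strand) for Slc25a1, chr11:120491587-120491836 (plus strand) for Slc25a10 and chr1:165461010-165461259 (plus strand) for Mpc2. The Mpc2 start of RefSeq lies inside the GENCODE gene, which begins at 165460637. Capitals mark a match to 1 of the motifs searched.
Slc25a1: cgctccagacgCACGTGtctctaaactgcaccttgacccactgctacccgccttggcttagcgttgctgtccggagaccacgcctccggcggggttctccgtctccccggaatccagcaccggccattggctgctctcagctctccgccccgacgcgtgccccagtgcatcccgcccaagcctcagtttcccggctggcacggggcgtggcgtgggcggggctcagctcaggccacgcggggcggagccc
Slc25a10: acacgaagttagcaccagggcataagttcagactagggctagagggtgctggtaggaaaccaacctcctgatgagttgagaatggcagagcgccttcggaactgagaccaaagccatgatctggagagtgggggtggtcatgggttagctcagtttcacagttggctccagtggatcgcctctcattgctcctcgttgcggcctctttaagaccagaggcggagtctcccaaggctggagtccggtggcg
Mpc2: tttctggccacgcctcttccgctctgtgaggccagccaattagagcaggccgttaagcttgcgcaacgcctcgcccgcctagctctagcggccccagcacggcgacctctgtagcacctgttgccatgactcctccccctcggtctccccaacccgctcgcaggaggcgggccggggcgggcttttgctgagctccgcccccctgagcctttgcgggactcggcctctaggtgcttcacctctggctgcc
The only capitals are an E-box in Slc25a1. Both strands of the full windows (250 bases before to 50 after the start) were searched for the NRF1 core, CCGGAAGT (ETS core), TCAAGGTCA (ERR), CACGTG (E-box) and ACGTG (part of the hypoxia response element, which every E-box also holds). RefSeq windows were found for 27 of the 29 members, 35 windows in all. The E-box stood in 5 of the 35 member windows (14.3%), those of Ogdh, Pcx and Slc25a1, and in 7.15% of all 32851 windows. ACGTG stood in 11 member windows (31.4%), of 6 genes, against 19.6% of all windows. The NRF1 core stood in 2 (5.71% against 4.60%), of Dld and Sucla2, CCGGAAGT in 1 (2.86% against 3.89%), of Dlst, and TCAAGGTCA in 0 (0.423% of all windows). Windows of 1 gene can overlap, and a match is a description of letters only.

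Depth and composition of the libraries bear on every value below. Summed FPKM ran from 687066 to 880583. From the steps between low values, 1 fragment on a transcript of 1 kb was worth an estimated 0.155 to 0.207 FPKM. Genes of the mitochondrial genome made up 5.64% and 8.41% of summed FPKM in Th0 and 1.55% and 3.35% with dopamine, and histone cluster genes 1.13% and 0.976% against 2.95% and 2.25%. T cell markers (8 genes) summed to 1195 and 1222 FPKM in Th0 and to 1384 and 1306 with dopamine. Granulocyte and mast cell markers (9 genes) summed to 446 and 593 FPKM in Th0 and to 50.04 and 46.5 with dopamine, and macrophage and dendritic cell markers (10 genes) to 221 and 300 against 27.1 and 28.8. Of these, Elane was listed at 0 in both dopamine libraries. B cell markers (5 genes) summed to at most 5.26 FPKM in any library, CD8 markers (2 genes) to at most 6.39 and NK markers (2 genes) to at most 0.257. The 2 tables were made separately, so differences were taken within a table, and levels set side by side across tables are only approximate.

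Differences are on the log2(FPKM + 1) scale, Th0+Dopa minus Th0, as the mean of the 2 within-table differences with its standard error after ±. They were tested in limma with the table as a block, and a gene was called when its two-sided p, adjusted by Benjamini-Hochberg over all tested genes, was under 0.05. Of the 29 members, 3 rose, 1 fell and 25 were not called. That is 13.8% called, and over all tested genes 10.7% were called (6.28% higher and 4.39% lower), so the share of members called was near the background. The median difference was 0.16 over the members and 0.03 over all tested genes. In 19 members both pairs were higher with dopamine (37.6% of tested genes), in 5 both were lower (32.3%), and in 5 the pairs disagreed. For 14 members both dopamine libraries stood above both Th0 libraries (31.4% of tested genes), and for 4 both stood below (25.6%). The scale of the libraries matters here. When the libraries were scaled to a common sum, the median difference of all tested genes moved to -0.20 and that of the members to -0.09, which left the members 0.11 above all genes, against 0.13 above for FPKM as deposited. Of all calls, 58.9% were higher as deposited, 26.1% with a common sum and 16.3% with small RNA genes left out before scaling. The calls of members also depended on how the spread was estimated. Without limma's trend 0 members were called (6 had an unadjusted p under 0.05), and the 4 called here had limma adjusted p from 0.0766 to 0.121. With no block for the table, or with all genes of at least 0.1 FPKM tested, Slc25a1 was the only member called.

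**Figure D1:**
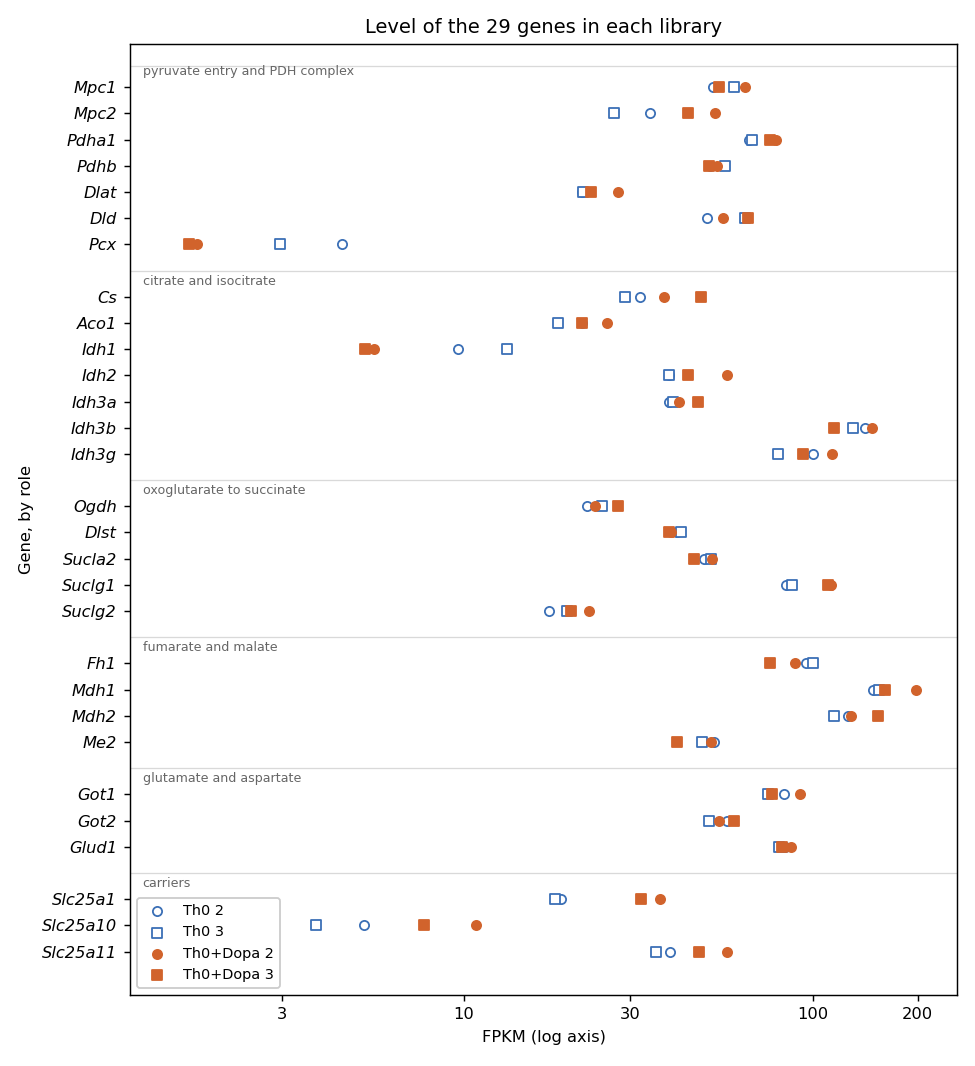
FPKM of each of the 29 genes in the 4 libraries on a log axis, grouped by role, with open blue symbols for Th0, filled orange symbols for Th0+Dopa, circles for libraries numbered 2 and squares for those numbered 3. Mdh1, Idh3b and Mdh2 stand highest and Pcx lowest. The groups do not overlap for 14 genes with dopamine above (31.4% of tested genes), among them Slc25a1, Slc25a10, Slc25a11 and Mpc2. With dopamine below they do not overlap for 4 (25.6% of tested genes), among them Idh1 and Pcx.

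The citrate and dicarboxylate carriers of the inner membrane rose, with the highest differences among the members. Slc25a1, the citrate carrier (ENSMUSG00000003528, chromosome 16, 17925223 to 17928219, minus strand), had 19.0 and 18.3 FPKM in Th0 and 36.6 and 32.1 with dopamine. Both dopamine libraries were well above both Th0 libraries, by 1.93 and 1.75 times within the tables. The group levels were 18.6 ± 0.463 and 34.3 ± 3.16 FPKM (SD, n = 2 each), and the log2 difference was 0.85 ± 0.13, or 1.80-fold (limma adjusted p = 0.0163). Slc25a10, the dicarboxylate carrier that exchanges malate and succinate for phosphate (ENSMUSG00000025792, chromosome 11, 120491840 to 120499187, plus strand), had 5.16 and 3.76 FPKM in Th0 and 10.8 and 7.70 with dopamine. It was the lowest carrier, and its dopamine values were 2.09 and 2.05 times the Th0 value of the same table. The difference was 0.90 ± 0.19 (limma adjusted p = 0.0392), resting on an estimated 20 to 74 fragments a library. Slc25a11, the oxoglutarate and malate carrier of the malate-aspartate shuttle, had 38.9 and 35.6 FPKM in Th0 and 56.9 and 47.3 with dopamine. Its groups did not overlap, but the difference of 0.47 ± 0.12 (95% interval 0.18 to 0.75, limma adjusted p = 0.0586) did not pass. Slc25a11 was called higher with a pseudocount of 0.1 (0.48, limma adjusted p = 0.0469) and with protein-coding genes only. Its exons overlap those of Rnf167 on the other strand (10.9 to 13.8 FPKM), and the sources used here do not say whether counting used strand.

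Fewer cells of a type and less RNA per cell cannot be told apart in these bulk libraries, and the same holds for every gene here. Slc25a1 and Slc25a10 did not pass when the libraries had a common sum (0.60 and 0.68, limma adjusted p = 0.0536 and 0.0909). After the differences were corrected for GC content and transcript length, Slc25a1 had 0.40 (limma adjusted p = 0.124) and Slc25a10 0.62 (limma adjusted p = 0.116), and in limma fits that each left out a library, in which at most 13 genes were called higher and 9 lower, neither passed. In these fits the difference of Slc25a1 was 0.85 without Th0 2, 0.79 without Th0 3, 0.72 without Th0+Dopa 2 and 0.92 without Th0+Dopa 3 (limma adjusted p = 0.218, 0.332, 0.230 and 0.140). That of Slc25a10 was 1.07, 0.69, 0.65 and 1.11 for the same omissions (limma adjusted p = 0.265, 0.512, 0.375 and 0.170). The fits without a dopamine library called 0 of all tested genes in limma, with 1854 and 2760 genes at an unadjusted p under 0.05, so a lost call there says little about a single gene.

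Pyruvate entry showed 1 call. The mitochondrial pyruvate carrier is a pair of proteins, and its subunit genes differed in their values. Mpc2 (ENSMUSG00000026568, chromosome 1, 165460637 to 165481214, plus strand) had 34.3 and 27.0 FPKM in Th0 and 52.4 and 43.8 with dopamine. Both dopamine libraries were above both Th0 libraries, and Mpc2 rose by 0.64 ± 0.12 or 1.56-fold (limma adjusted p = 0.0281). Mpc1 had 51.6 and 59.5 FPKM in Th0 and 64.1 and 53.9 with dopamine, so that its pairs pointed in opposite directions and the groups overlapped. Its difference was 0.08 ± 0.14 (95% interval -0.27 to 0.44). The pseudogene Mpc1-ps was listed at 13.0 to 22.5 FPKM and may share fragments with Mpc1, whose value is uncertain for that reason. The ratio of Mpc1 to Mpc2 was 1.51 and 2.21 in Th0 and 1.22 and 1.23 with dopamine, which was lower in both tables; this ratio was not tested. Mpc2 kept a limma adjusted p under 0.05 after the GC and length correction (0.76), but had 0.39 (limma adjusted p = 0.141) with a common sum, and in the fits that left out a library it had 0.44 to 0.79 (limma adjusted p from 0.189 to 0.515).

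The subunits of pyruvate dehydrogenase, the complex that makes acetyl-CoA from pyruvate, were not called. Pdha1, the catalytic alpha subunit, had 65.9 and 66.9 FPKM in Th0 and 78.2 and 75.3 with dopamine. These groups did not overlap, yet the gap was small, 0.21 ± 0.11 (95% interval -0.06 to 0.47). Pdhb, its beta partner, had -0.05 ± 0.12, Dlat, the transacetylase core, 0.20 ± 0.14, and Dld, the dihydrolipoamide dehydrogenase that the oxoglutarate complex shares, 0.08 ± 0.11. By FPKM, a level per length, Pdha1 stood 1.19 to 1.49 times above Pdhb and 2.82 to 3.25 times above Dlat in the 4 libraries. Pcx, pyruvate carboxylase, which makes oxaloacetate from pyruvate, was the lowest member. It had 4.47 and 2.97 FPKM in Th0 and 1.71 and 1.63 with dopamine. Both dopamine libraries were below both Th0 libraries, but the difference of -0.80 ± 0.27 (95% interval -1.47 to -0.14, limma adjusted p = 0.123) did not pass, and these values rest on an estimated 20 to 57 fragments. Of 9 tested macrophage and dendritic cell markers, all were lower with dopamine in both pairs and 8 were called lower. Their part in the Pcx values was not tested.

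Among the enzymes from citrate to oxoglutarate, Idh1 fell and the other 6 were not called. Idh1, the cytosolic isocitrate dehydrogenase that makes NADPH (ENSMUSG00000025950, chromosome 1, 65158616 to 65186500, minus strand), had 9.63 and 13.3 FPKM in Th0 and 5.53 and 5.22 with dopamine. The Th0 libraries differed from each other more than the dopamine libraries did, and the groups did not overlap. The group levels were 11.5 ± 2.59 and 5.37 ± 0.224 FPKM (SD, n = 2 each) and the difference -0.95 ± 0.20, or 1.93-fold lower (limma adjusted p = 0.0420), on an estimated 36 to 70 fragments. Idh2, the mitochondrial enzyme of the same reaction, had 38.6 and 38.7 FPKM in Th0 and 56.9 and 44.0 with dopamine. All of the dopamine values were higher, though Idh2 was not called (0.36 ± 0.14, limma adjusted p = 0.152). The ratio of Idh1 to Idh2 was 0.249 and 0.343 in Th0 and 0.0971 and 0.119 with dopamine, lower in both tables and not tested. Granulocyte and mast cell markers (8 of 8 tested) and macrophage and dendritic cell markers (8 of 9 tested) were called lower in the same libraries. All of the tested markers of these 2 lists were lower in both pairs, and their part in the Idh1 difference was not tested. With a common sum Idh1 had -1.18 and was still called. Its limma adjusted p was 0.0549 after the GC and length correction, and in the fits that left out a library it had -1.18 to -0.77 (limma adjusted p from 0.191 to 0.401).

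Cs, citrate synthase, which joins acetyl-CoA to oxaloacetate, had 32.0 and 28.9 FPKM in Th0 and 37.6 and 47.9 with dopamine. The dopamine libraries were above the Th0 libraries, by different amounts in the pairs (log2 differences of 0.23 and 0.71), and the mean of 0.47 ± 0.15 (95% interval 0.09 to 0.85) was not called (limma adjusted p = 0.118). Aco1, the cytosolic aconitase that doubles as an iron sensor, had 0.22 ± 0.13. The NAD-dependent isocitrate dehydrogenase of the matrix has a catalytic alpha subunit and a pair of regulatory subunits. Idh3a had 0.16 ± 0.12, Idh3b -0.05 ± 0.11 and Idh3g 0.21 ± 0.10. By FPKM, Idh3b stood 2.46 to 3.65 times above Idh3a and 1.23 to 1.64 times above Idh3g. Idh3b shares exon sequence on the other strand with Nop56 (235 to 312 FPKM), so its level is uncertain.

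No enzyme between oxoglutarate and succinate was called. Suclg1, the alpha subunit common to both succinyl-CoA synthetases, came closest, with 83.9 and 87.4 FPKM in Th0 and 113 and 111 with dopamine. The libraries of a group were near each other and the groups were apart, and the difference was 0.38 ± 0.10 (95% interval 0.12 to 0.64, limma adjusted p = 0.0761). The beta subunits decide which nucleotide the enzyme makes. Sucla2, the ATP-forming beta subunit, had -0.04 ± 0.12, and Suclg2, the GTP-forming one, 0.20 ± 0.15. The ratio of Sucla2 to Suclg2 was 2.79 and 2.59 in Th0 and 2.26 and 2.25 with dopamine. Ogdh, the first component of the oxoglutarate dehydrogenase complex, had 0.11 ± 0.13, and Dlst, its succinyltransferase, -0.09 ± 0.11. The 4 libraries of Dlst lay between 38.7 and 41.9 FPKM.

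**Figure D2:**
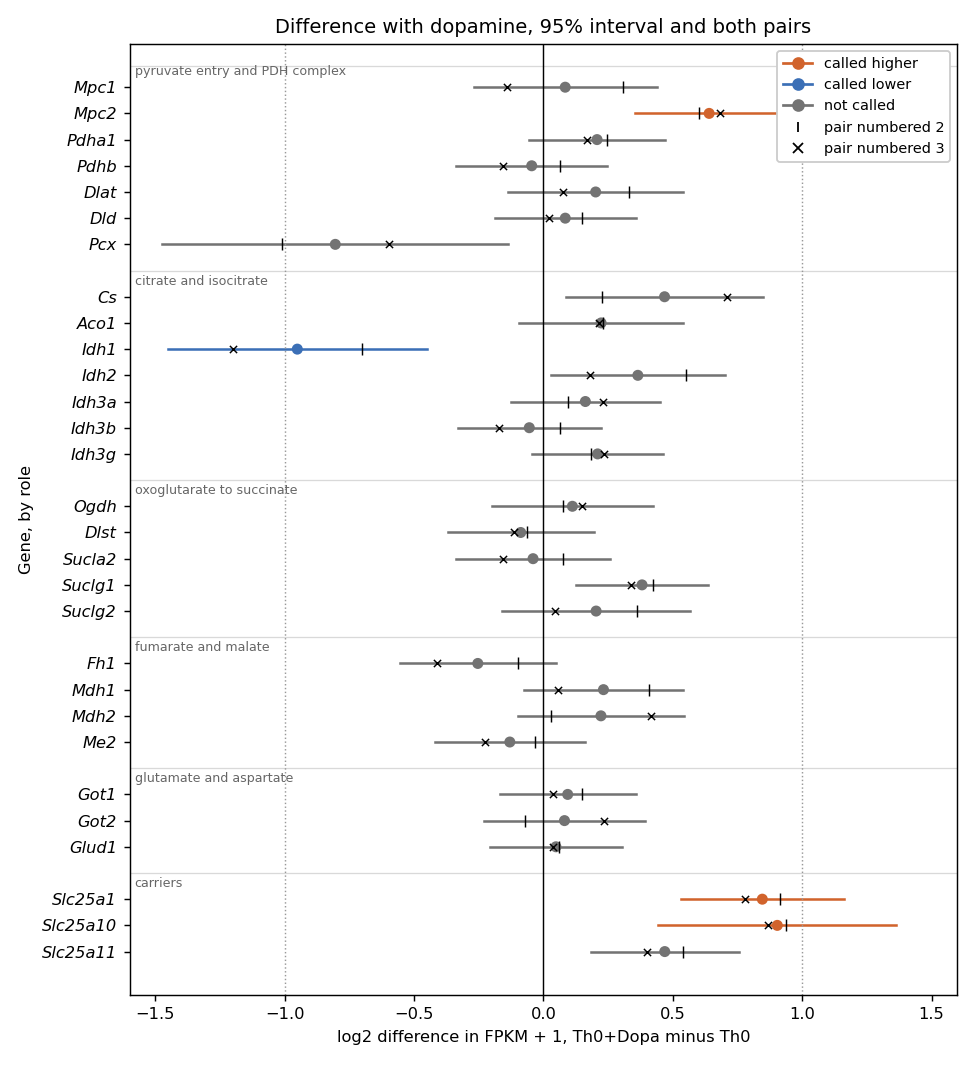
log2 difference in FPKM + 1, Th0+Dopa minus Th0, for the 29 genes by role, as the limma estimate (dots) with its 95% interval (lines) and the difference of each pair (a bar for libraries numbered 2, a cross for those numbered 3); dotted lines mark a 2-fold change. Slc25a1, Slc25a10 and Mpc2 were called higher (orange) and Idh1 lower (blue), and most other intervals cross 0 and lie inside the dotted lines.

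The enzymes of fumarate and malate gave no call, and Mdh1 had the highest level of the members. Mdh1, the cytosolic malate dehydrogenase, had 148 and 155 FPKM in Th0 and 197 and 161 with dopamine. Mdh2, its mitochondrial counterpart, had 126 and 115 in Th0 and 129 and 154 with dopamine. Each of these genes was higher with dopamine mainly in 1 pair, Mdh1 in the pair numbered 2 (0.41 against 0.05) and Mdh2 in the pair numbered 3 (0.42 against 0.03), and the means were 0.23 ± 0.12 and 0.22 ± 0.13. Fh1, fumarase, had 95.5 and 100.4 FPKM in Th0 and 89.2 and 75.3 with dopamine, lower in both pairs. Its difference was -0.25 ± 0.12 (95% interval -0.56 to 0.05, limma adjusted p = 0.237), but with a common sum it was called lower (-0.51, limma adjusted p = 0.0403). Me2, the mitochondrial malic enzyme that makes pyruvate from malate, had -0.13 ± 0.12. With small RNA genes left out before scaling to a common sum, which moved the median of all tested genes to -0.24, 5 members were called lower: Idh1, Fh1, Pcx (-1.01, limma adjusted p = 0.0222), Idh3b (-0.35, limma adjusted p = 0.0331) and Me2 (-0.42, limma adjusted p = 0.0393).

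The 3 glutamate and aspartate enzymes were not called and had differences of at most 0.09. Glud1, glutamate dehydrogenase, which turns glutamate into oxoglutarate, had 83.0 and 79.9 FPKM in Th0 and 86.6 and 81.9 with dopamine. The libraries overlapped and the difference was 0.05 ± 0.10, with a 95% interval of -0.21 to 0.30. The aspartate aminotransferases Got1 (cytosolic) and Got2 (mitochondrial) had 0.09 ± 0.11 and 0.08 ± 0.13, and neither passed the test. The ratio of Got1 to Got2 was 1.46 and 1.48 in Th0 and 1.71 and 1.29 with dopamine, higher in 1 table and lower in the other.

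Standard errors of the members ran from 0.10 (Idh3g) to 0.27 (Pcx). For 25 of the 29 members the 95% interval, not adjusted for the number of genes, lay within a 2-fold change in either direction, and for 20 within 1.5-fold. The 4 whose interval reached past 2-fold were Slc25a1, Slc25a10, Idh1 and Pcx. At an unadjusted p under 0.05 there were 9 members, these 4 with Mpc2, Cs, Idh2, Suclg1 and Slc25a11.

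**Figure D3:**
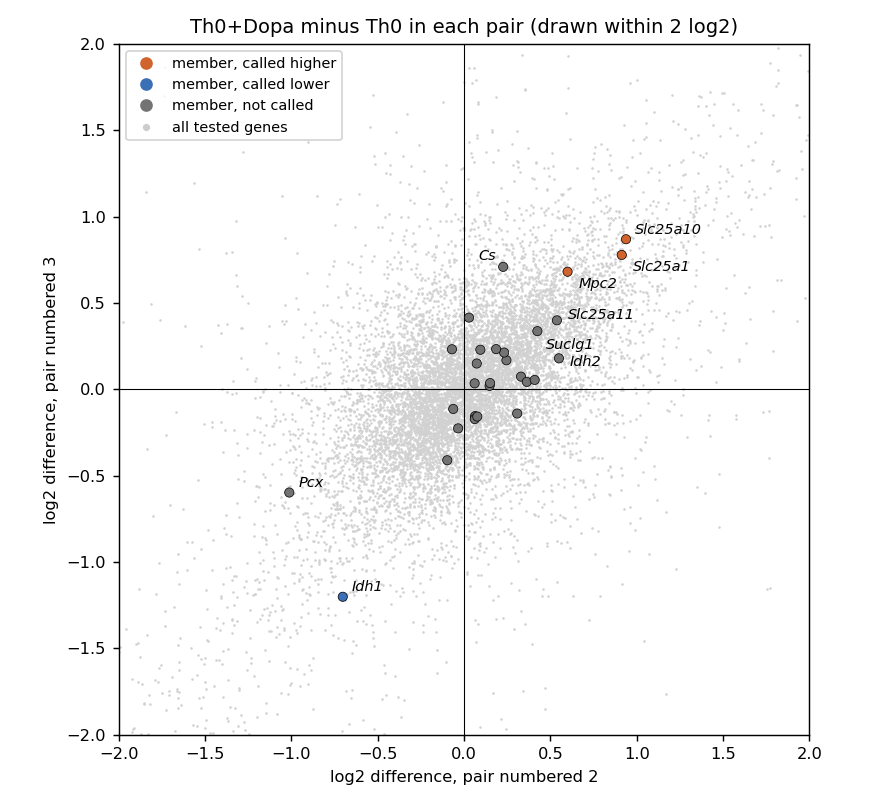
log2 difference, Th0+Dopa minus Th0, in the pair of libraries numbered 2 (x axis) against the pair numbered 3 (y axis), for the 29 genes (large dots, coloured by call) and all tested genes within 2 log2 units (grey). The 9 genes with an unadjusted p under 0.05 are named; Slc25a1, Slc25a10 and Mpc2 stand apart at the upper right and Idh1 and Pcx at the lower left, while most others lie near the centre.

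Other genes of the pathway were read from fixed lists. Of 54 such genes with a row, 47 were tested, of which 4 rose and 2 fell. That is 12.8% called, near the 10.7% of all tested genes (6.28% higher and 4.39% lower). Among 9 tested regulators and assembly factors of pyruvate dehydrogenase, 1 was called. Pdk1, the kinase that inactivates the complex, had 77.7 and 83.8 FPKM in Th0 and 47.5 and 46.4 with dopamine, and both dopamine libraries were far below both Th0 libraries (-0.77 ± 0.11, limma adjusted p = 0.0147). Also at an unadjusted p under 0.05, but not called, were the kinase Pdk3 (-0.31 ± 0.12, limma adjusted p = 0.162) and, in opposite directions, the catalytic and regulatory subunits of the phosphatase, Pdp2 (0.48 ± 0.18, limma adjusted p = 0.160) and Pdpr (-0.43 ± 0.17, limma adjusted p = 0.165). Pdk2 and Pdk4 lay under the filter. Of 8 tested genes of succinate dehydrogenase and its assembly, which is the step left out of the members, Sdhb and Sdhc rose by 0.65 ± 0.10 and 0.60 ± 0.11 (limma adjusted p = 0.0196 and 0.0294). Sdha, the flavoprotein subunit, had 78.2 and 88.4 FPKM in Th0 and 53.3 and 74.8 with dopamine, lower in both pairs but not called (-0.39 ± 0.12, limma adjusted p = 0.106). Sdhb and Sdhc did not pass with a common sum (limma adjusted p = 0.0617 and 0.158) or without the block (limma adjusted p = 0.0677 and 0.241). Sdhc had 0.27 without Th0 3, 0.30 without Th0+Dopa 2, 0.88 without Th0 2 and 0.85 without Th0+Dopa 3.

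Of 10 tested genes of glutamine and amino acid entry, 1 was called. Aldh18a1, which starts proline synthesis from glutamate, had 27.6 and 26.6 FPKM in Th0 and 52.7 and 47.5 with dopamine and rose by 0.86 ± 0.12 (limma adjusted p = 0.0123). The glutamine transporter Slc1a5 had 0.53 ± 0.13 (limma adjusted p = 0.0531). Among 9 tested genes of side reactions, Pck2, the mitochondrial phosphoenolpyruvate carboxykinase, rose by 1.30 ± 0.20 (limma adjusted p = 0.0170), from 2.64 and 3.40 FPKM in Th0 to 8.29 and 9.46 with dopamine. Acod1, which makes itaconate from the cycle intermediate aconitate and is known from macrophages, went from 18.4 and 26.04 FPKM in Th0 to 3.67 and 3.28 with dopamine. Its difference of -2.35 ± 0.21 (limma adjusted p = 0.00357) was the largest among the tested pathway genes, and macrophage and dendritic cell markers fell in the same libraries, from summed levels of 221 and 300 FPKM to 27.1 and 28.8; their part in it was not tested. None of the 11 tested genes of fatty acid entry was called by limma, and 4 of them had an unadjusted p under 0.05, in both directions. These were the carnitine palmitoyltransferase Cpt1a (-0.57 ± 0.16, limma adjusted p = 0.0794) and the acyl-CoA dehydrogenases Acadm (-0.36 ± 0.13, limma adjusted p = 0.143), Acadl (0.43 ± 0.14, limma adjusted p = 0.122) and Acadvl (0.43 ± 0.15, limma adjusted p = 0.129). In the limma fits that left out a library, 0 of these 47 genes were called and 4 to 11 had an unadjusted p under 0.05. The differences in these fits were 0.75 to 0.92 for Aldh18a1, 1.15 to 1.41 for Pck2, -2.61 to -2.15 for Acod1, -0.84 to -0.75 for Pdk1 and 0.48 to 0.77 for Sdhb.

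**Figure D4:**
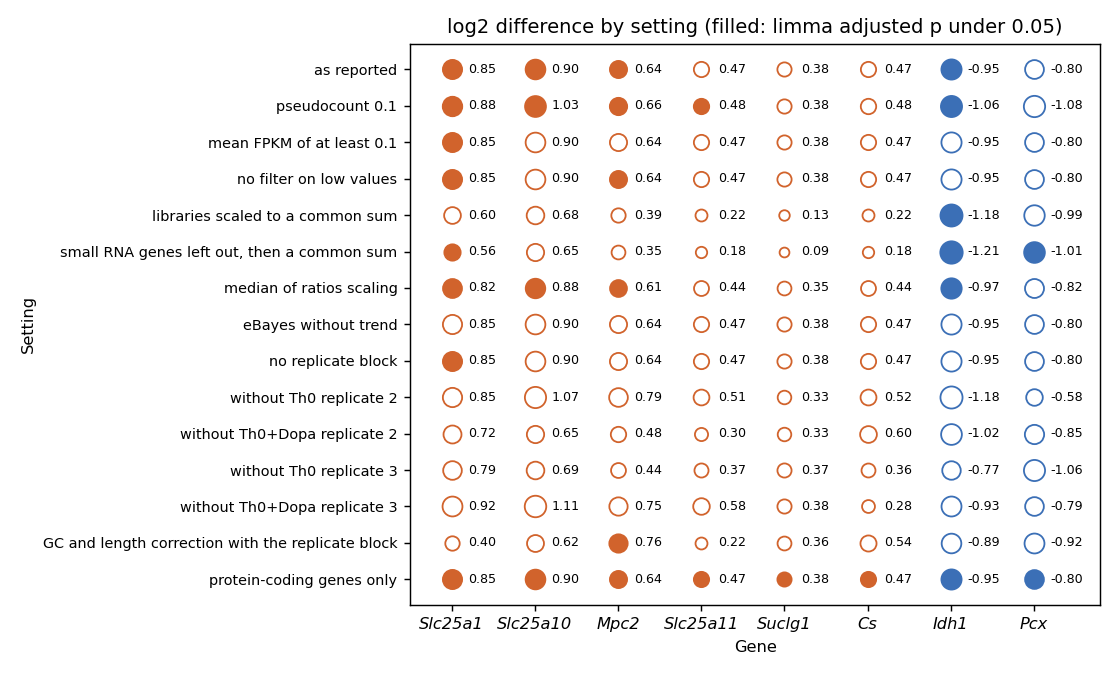
log2 difference, Th0+Dopa minus Th0, of 8 genes (columns) under each setting (rows); circle area grows with the size of the difference, orange is higher and blue lower with dopamine, and filled circles have a limma adjusted p under 0.05. All 8 kept their sign in every row, and none was called in the 4 rows that leave out a library or without limma's trend.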

How the data were processed

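Total RNA from 4 samples of cultured mouse splenic CD4+ T cells (2 Th0, 2 Th0+Dopa) was purified on columns with DNase treatment and made into stranded libraries after removal of ribosomal RNA and globin mRNA, per the labels' protocols. Each library ran on 2 lanes, paired-end. The authors deposited FPKM in 2 tables made separately, libraries numbered 2 in one and 3 in the other. Tools named in the submitters' processing notes are STAR 2.4.2 and Cufflinks 2.2.1, with Trimmomatic 0.35, and the build is mm10. The sources used here do not give the annotation, normalization option or use of strand, and read depth is known only by the estimate from value steps (FPKM times the mean GENCODE transcript length; 78.9% to 81.8% of low values were whole to within 0.15 fragment).

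GENCODE M21 named 36423 of 38282 IDs. Genes with a mean of at least 1 FPKM were tested with limma 3.58.1 in R 4.3.3 (lmFit, eBayes with trend) on log2(FPKM + 1), which understates changes of low genes, with the table as a block. The fit has 1 residual degree of freedom, and the prior adds 4.70. An exact permutation test of 2 against 2 libraries cannot go below 0.333 and was not used. Alternatives were another pseudocount, other filters and scalings, no trend, no block, each library left out (no block, median-of-ratios scaling, a lone library being assumed to vary like the others), a loess correction for GC content and length (span 0.3), and protein-coding genes only.

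The members, the gene lists and the motifs were chosen with earlier results of these data known. All members are accounted for; calls are given with values by library, and from each further list the called genes of lowest p are named. Pdk3, Pdp2, Pdpr, Sdha, Slc1a5, Cpt1a, Acadm, Acadl and Acadvl were named after their values were seen. Some genes of the further lists are counted but not reported here by name.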

Additional observations from a re-analysis of the deposited data

How the results depend on the processing

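Limits: each gene's spread rests on 1 residual degree of freedom plus a prior, the depth is an estimate, and Slc25a10, Pcx and Idh1 rest on the fewest fragments. As reported, 3 members were called higher and 1 lower, 4 further pathway genes higher and 2 lower, and 717 tested genes higher and 501 lower. In the order members, pathway genes, all tested genes, the counts (higher and lower) that moved by over 1.5 times were these. With a mean FPKM of at least 0.1, members gave 1 and 0, and all genes 385 and 284. With no filter, the members called lower were 0, and all genes gave 442 and 298. With a common sum, members gave 0 and 2, pathway genes 2 and 4, and all genes 376 and 1064. With small RNA genes left out before scaling, members gave 1 and 5, pathway genes called lower were 9, and all genes gave 448 and 2300. Without limma's trend, members gave 0 and 0, pathway genes 1 and 1, and all genes 106 and 150. With the GC and length correction and the block, members gave 1 and 0, and all genes called higher were 431. With protein-coding genes only, members gave 6 and 2, which added Cs, Slc25a11 and Suclg1 as higher and Pcx as lower. In that setting pathway genes called lower were 4 and higher 6, and all genes called lower were 907 and higher 1077. With a pseudocount of 0.1 members gave 4 and 1, which added Slc25a11 as higher, and median-of-ratios scaling gave 3 and 1. The cause was not tested in any of these. The filters change the number of genes tested, and each scaling shifts all genes. Without each library in turn, members gave 0 to 0 in both directions, pathway genes 0 to 0, and all genes 0 to 13 higher and 0 to 9 lower.

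Same-numbered libraries deviated from their group means with a correlation of 0.0869 over the tested genes. With 2 libraries in a group, this is a single value that holds for both numbers. It shows little deviation shared within a table, and it cannot show whether libraries share an animal or culture. The numbers were not taken as pairing animals or cultures. The block represents the table, since the 2 tables were made separately. Without the block, members gave 1 (Slc25a1) and 0, pathway genes called higher 2 and lower 2, and all genes 256 and 240.

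Signs turned in 44 of 406 member results over 14 alternatives, in none for a called member. With a common sum these were Mpc1 -0.17, Pdha1 -0.045, Dlat -0.043, Dld -0.17, Aco1 -0.022, Idh3a -0.087, Idh3g -0.043, Ogdh -0.13, Suclg2 -0.040, Mdh1 -0.022, Mdh2 -0.031, Got1 -0.16, Got2 -0.17, Glud1 -0.20. With small RNA genes left out first they were Mpc1 -0.21, Pdha1 -0.085, Dlat -0.083, Dld -0.21, Aco1 -0.061, Idh3a -0.13, Idh3g -0.084, Ogdh -0.17, Suclg2 -0.079, Mdh1 -0.063, Mdh2 -0.072, Got1 -0.20, Got2 -0.21, Glud1 -0.24. With the GC and length correction they were Pdhb 0.0016 and Sucla2 0.10. Over the fits that left out a library, the ranges were Mpc1 -0.076 to 0.19, Dld -0.11 to 0.23, Got1 -0.078 to 0.21, Glud1 -0.030 to 0.073, Got2 -0.039 to 0.15, Idh3b -0.27 to 0.11, Ogdh -0.011 to 0.18, Sucla2 -0.16 to 0.030, Me2 -0.32 to 0.0093.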
